A study of Mus musculus with 12 samples.

Results

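The actin, spectrin and cortical membrane cytoskeleton was followed in mouse lenses as a group of 50 genes chosen by symbol: actins, tropomodulins, tropomyosins, spectrins and ankyrins, protein 4.1 genes, adducins, ezrin-radixin-moesin (ERM) proteins, cortactin and Src kinases, filament cross-linkers and non-muscle myosins, actin turnover factors, capping protein, the Arp2/3 complex, adhesion linkers, and plectin with the dystrophin family. All 50 were present among the 8676 genes of the deposited count table, and the rule takes symbols alone, though it was set with earlier results of these data known. RNA was sequenced from lenses at postnatal day 7 (P7) of C57BL/6J mice of 4 genotypes. Epha2-Q722 lenses were homozygous for a CRISPR knock-in that changes an arginine to glutamine in the tyrosine kinase domain of EPHA2. Epha2-indel722 lenses were homozygous for an insertion-deletion in the same domain, from an off-target founder of the same editing. Epha2-null lenses carried a neomycin cassette inserted in exon 5 of Epha2 in every cell, and wild type lenses carried unedited Epha2. Each genotype had 3 libraries, each from a pool of 6 lenses, and nothing states whether lenses of 1 pool came from separate mice, so p-values refer to the spread between pools.

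EPHA2 is a receptor tyrosine kinase that binds ephrin ligands on neighboring cells, and Eph signaling is known to reach actin through Src family kinases and cortactin. Lens fiber cells are long hexagonal cells whose shape and packing depend on short actin filaments, bound by tropomyosin and capped by tropomodulin, that tie spectrin tetramers into a network under the plasma membrane. Ankyrins, protein 4.1 and ERM proteins attach this network and actin filaments to membrane proteins, while cross-linkers, myosin, cofilin, capping protein and the Arp2/3 complex set how filaments are bundled, pulled, severed, capped and branched.

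Values are normalized CPM, read counts scaled to library totals and TMM factors. Library totals were 14543069 to 20340688 reads, so 3 counts, the limit that a count of 0 allows, equal 0.147 to 0.206 CPM in a library. The table starts at 3 CPM, which each gene passes in 6 or more of the 12 libraries, and lower genes are not analysed here. A gene rose or fell where the quasi-likelihood test of edgeR, on a fit of the 12 libraries together, gave an adjusted p of at most 0.05, with Benjamini-Hochberg adjustment over the 8676 genes. Epha2 itself had 30.6, 36.2 and 36.9 normalized CPM in Epha2-null, 21.6, 19.97 and 20.4 in Epha2-indel722, 44.99, 47.3 and 54.4 in Epha2-Q722 and 63.1, 51.4 and 56.0 in wild type lenses. Epha2 thus fell in Epha2-indel722 (log2 fold change -1.46, adjusted p = 1.4e-10) and Epha2-null (-0.71, adjusted p = 6.7e-06), while its difference in Epha2-Q722 did not pass (-0.21, adjusted p = 0.16), and counts per gene cannot check the edited codon. All 14 lens fiber and 12 lens epithelium markers listed were measured, whereas 0 of 12 macrophage, 0 of 12 skeletal muscle, 0 of 14 retinal and 0 of 8 corneal markers were. In bulk lens RNA, fewer cells of a type and less RNA per cell cannot be told apart.

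Most cortical cytoskeleton genes differed little between genotypes, and Fscn1 in Epha2-null was the only member changed by at least 2-fold against wild type. In Epha2-null, 4 members rose and 5 fell, where 4.98% of all genes rose and 6.22% fell. In Epha2-indel722, 7 members rose and 5 fell, where 6.73% of all genes rose and 6.37% fell. In Epha2-Q722, 1 member rose and 5 fell, where 2.75% of all genes rose and 3.62% fell. Changes of at least 2-fold were made by 1, 0 and 0 members in the same order, against 0.841%, 1.01% and 0.807% of all genes. The median log2 fold change of the 50 members was -0.01 in Epha2-null, 0.02 in Epha2-indel722 and -0.01 in Epha2-Q722, beside 0.01, -0.00 and 0.00 over all genes. The 3 mutant libraries did not overlap the 3 wild type libraries for 18 members (36%) in Epha2-null, 18 (36%) in Epha2-indel722 and 14 (28%) in Epha2-Q722, where this held for 28.6%, 32% and 22.4% of all genes. The 3 comparisons share their wild type libraries. Of the 50 members, 27 passed in none of them, 20 in 1, Tpm4 and Actr3 in 2 and Ank3 in all 3. The 23 that passed in any were 46% of members, where 22.4% of all genes passed in any. This higher share did not come with larger changes. The median absolute log2 fold change of members was 0.105 in Epha2-null, 0.106 in Epha2-indel722 and 0.093 in Epha2-Q722. Over all genes it was 0.116, 0.117 and 0.098 in the same order. Why members passed more often was not tested.

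**Figure D1:**
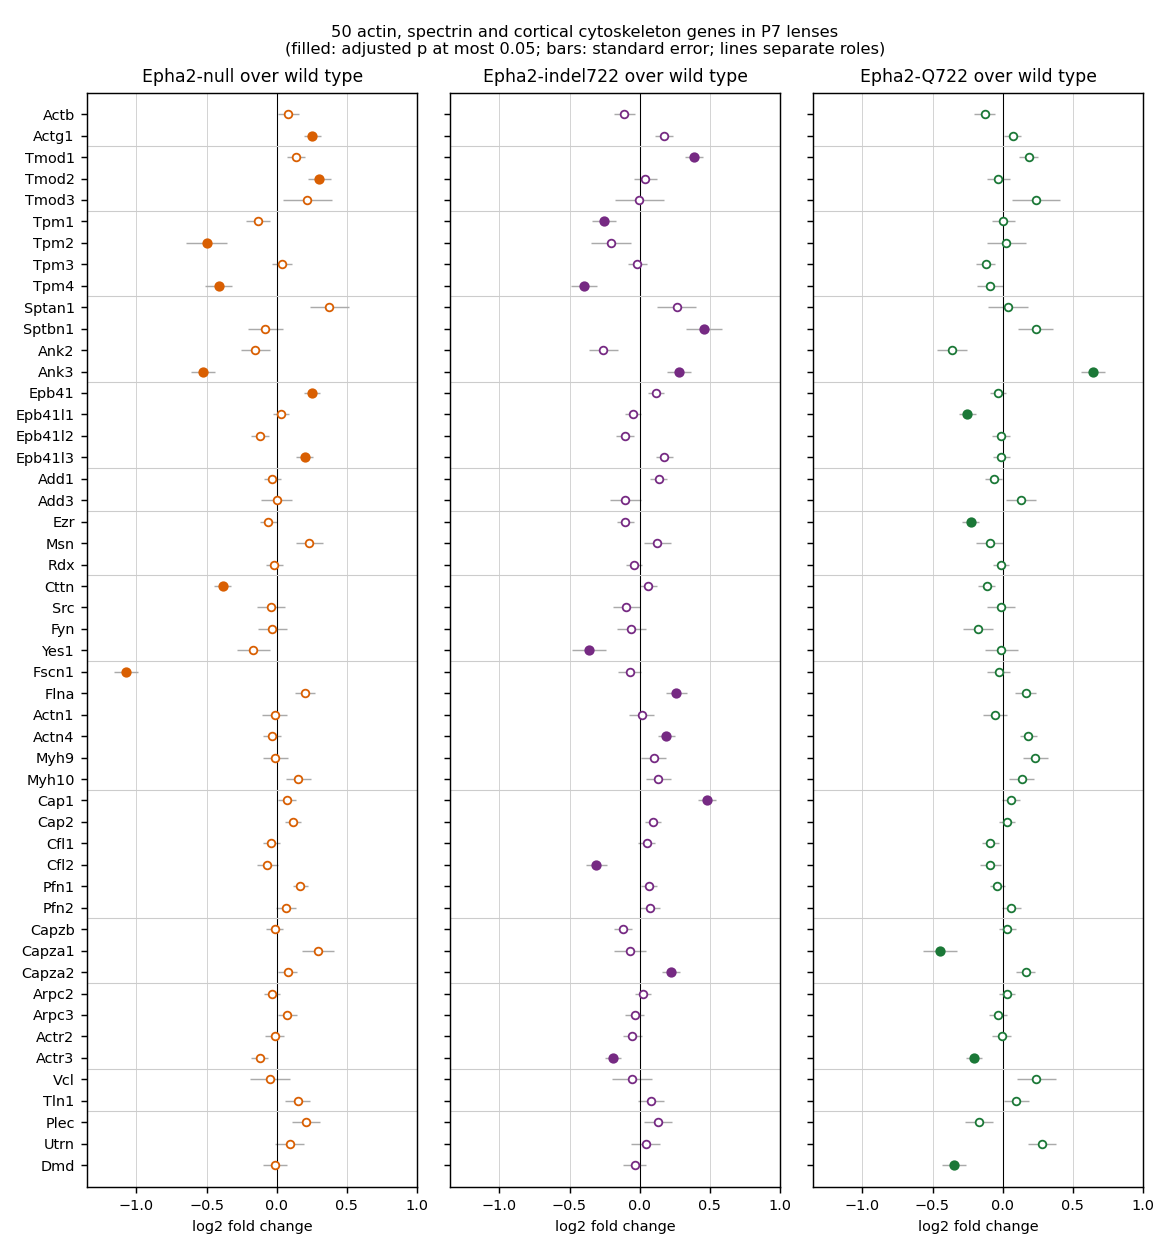
Log2 fold change over wild type of each of the 50 members (rows, grouped by role) in Epha2-null, Epha2-indel722 and Epha2-Q722 lenses, with standard errors as bars and filled points where the adjusted p was at most 0.05. Fscn1 in Epha2-null, at -1.08, lies beyond all other members, which lie between -0.52 and 0.65.

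Of the 27 calls against wild type, 4 held under all alternatives that were run: Ank3 in Epha2-Q722, Tmod1 and Cap1 in Epha2-indel722 and Fscn1 in Epha2-null. Leaving out 1 library at a time lost 18 of the 27 under at least 1 omission, as given with each gene. Scaling to library totals in place of TMM moved the median of all genes to 0.28 in Epha2-null, 0.17 in Epha2-indel722 and 0.15 in Epha2-Q722. On that scale 33 members rose and 1 fell in Epha2-null, 17 rose and 0 fell in Epha2-indel722, and 7 rose and 0 fell in Epha2-Q722. All 12 rises passed there, but of the 15 falls Fscn1 alone did. The other 14 falls had log2 fold changes of -0.30 to -0.03 and adjusted p of 0.064 to 0.81. Of these, Cttn, Tpm4 and Ank3 in Epha2-null and Tpm4 in Epha2-indel722 were lost under that setting alone. The upward shift of all genes makes rises easier to call there and falls harder. Rises and falls below are thus both relative to the median gene.

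Per length, Actb stood far above every other member. Mean normalized CPM per kb of exon in wild type lenses were 516 for Actb, 108 for Actg1, 99.9 for profilin Pfn1, 93.8 for ezrin, 84.8 for Sptan1 and 48.7 for Sptbn1. At the other end were 0.864 for Utrn, 0.6798 for Dmd, 0.585 for Vcl and 0.260 for Tmod3. The summed level of the 50 members was 7364, 7990.2 and 8912 normalized CPM in Epha2-null, 8482, 8405 and 7748 in Epha2-indel722, 7485, 7275 and 8019 in Epha2-Q722 and 7742, 7734 and 7602 in wild type lenses. Within a genotype, members varied by a median coefficient of variation of 5.50% in Epha2-null, 5.13% in Epha2-indel722, 5.62% in Epha2-Q722 and 4.49% in wild type lenses.

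**Figure D2:**
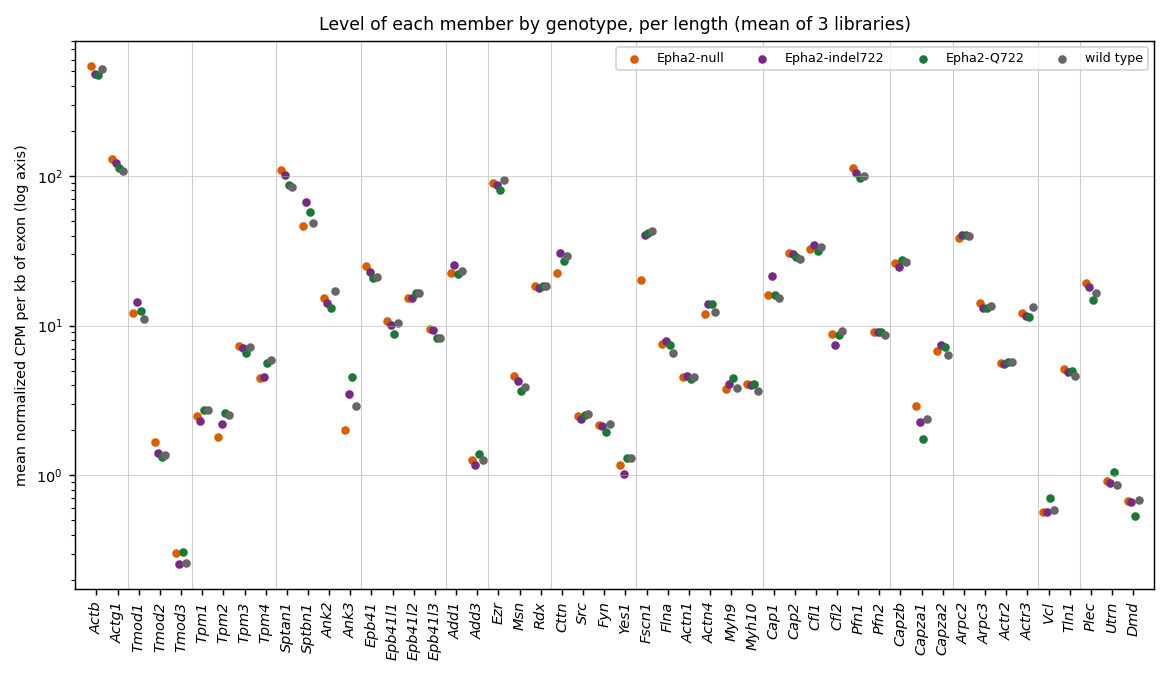
Mean level of each member per kb of exon, as normalized CPM on a log axis, in Epha2-null, Epha2-indel722, Epha2-Q722 and wild type lenses (3 libraries each, members grouped by role). In wild type lenses the members reach from 0.260 for Tmod3 to 516 for Actb.

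Actb and Actg1 encode the nearly identical beta and gamma cytoplasmic actins, the building blocks of every filament considered here. Actg1 measured 330.01, 336 and 364 normalized CPM in Epha2-null, 335, 329.7 and 309 in Epha2-indel722, 285, 298 and 324 in Epha2-Q722 and 279, 284 and 299 in wild type lenses. All 3 Epha2-null libraries were above all 3 wild type libraries, and Actg1 rose in Epha2-null (log2 fold change 0.26 ± 0.06 (SE), adjusted p = 0.0078). Actg1 missed the threshold without wild type replicate 1 (adjusted p = 0.066). Actb measured 1351, 1416 and 1622 normalized CPM in Epha2-null, 1343, 1324 and 1179 in Epha2-indel722, 1209, 1308 and 1280.1 in Epha2-Q722 and 1471, 1268 and 1408 in wild type lenses. The Actb range of each mutant genotype overlapped that of wild type, with log2 fold changes of 0.08 in Epha2-null, -0.11 in Epha2-indel722 and -0.13 in Epha2-Q722, none of which passed. How reads that match both actins or their processed pseudogenes were counted is not given in the sources used here, so the split between Actb and Actg1 is uncertain.

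Actin genes, Vcl and other cytoskeletal genes are known targets of serum response factor, which binds the CArG box, a 10-base site of CC and GG around an A/T center, when free actin monomers run low. RefSeq promoters (GRCm38.p6, from 250 bases before to 50 bases after the start) were matched for 45 of the 50 members, and Actb, Tmod3, Ank3, Cttn and Plec had no entry and were not searched. A CArG box on either strand was found in 3 of the 45 (6.67%), against 105 of 6888 promoters of genes in the table (1.52%) and 488 of 27025 promoters in all (1.81%). The 3 promoters are shown 5′ to 3′ on the gene's strand because they carry the site, which is in capitals. A match is a description of letters, not of binding.
Actg1 (chr11:120348446-120348745, minus strand, CArG box beginning 90 bases before the start): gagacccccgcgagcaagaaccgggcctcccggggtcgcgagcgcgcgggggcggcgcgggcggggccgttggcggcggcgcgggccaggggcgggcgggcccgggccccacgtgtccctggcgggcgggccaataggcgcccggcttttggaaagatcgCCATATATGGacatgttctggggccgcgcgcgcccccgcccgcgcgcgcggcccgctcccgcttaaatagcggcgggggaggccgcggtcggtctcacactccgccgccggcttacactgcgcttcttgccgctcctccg
Vcl (chr14:20929148-20929447, plus strand, CArG box beginning 227 bases before the start): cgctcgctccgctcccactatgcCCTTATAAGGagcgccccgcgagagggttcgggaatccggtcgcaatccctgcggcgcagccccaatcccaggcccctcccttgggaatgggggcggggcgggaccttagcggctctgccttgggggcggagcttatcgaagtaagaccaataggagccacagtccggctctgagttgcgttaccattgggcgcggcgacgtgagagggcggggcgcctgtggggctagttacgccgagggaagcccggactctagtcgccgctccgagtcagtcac
Dmd (chrX:82948620-82948919, plus strand, CArG box beginning 98 bases before the start): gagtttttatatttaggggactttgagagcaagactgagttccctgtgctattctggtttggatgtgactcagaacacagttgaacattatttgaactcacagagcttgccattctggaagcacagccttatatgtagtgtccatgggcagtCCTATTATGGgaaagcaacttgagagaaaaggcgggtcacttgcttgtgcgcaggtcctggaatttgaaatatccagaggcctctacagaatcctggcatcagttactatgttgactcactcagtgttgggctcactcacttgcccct
The 3 genes with a CArG box did not share a pattern. Actg1 rose in Epha2-null, Dmd fell in Epha2-Q722, and Vcl passed in none.

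Tropomodulins cap the slow-growing pointed ends of actin filaments, and Tmod1 is the tropomodulin of the fiber cell membrane skeleton. Tmod1 measured 48.8, 46.1 and 49.2 normalized CPM in Epha2-null, 60.5, 56.5 and 54.1 in Epha2-indel722, 51.01, 52.01 and 45.8 in Epha2-Q722 and 43.2, 42.7 and 44.9 in wild type lenses. Every Epha2-indel722 library was above every library of the other genotypes, and Tmod1 rose in Epha2-indel722 (log2 fold change 0.39 ± 0.07 (SE), adjusted p = 0.00021). It was also above wild type in all 3 Epha2-Q722 and all 3 Epha2-null libraries, but these smaller differences did not pass (0.19, adjusted p = 0.1, and 0.14, adjusted p = 0.2). Exons of Tmod1 overlap those of Tstd2 on the other strand, and Tstd2 did not pass in Epha2-indel722 (9.33 against 8.86 normalized CPM in wild type, log2 fold change 0.07, adjusted p = 0.74). Tmod2, known as the neuronal tropomodulin, measured 20.2, 18.7 and 20.04 normalized CPM in Epha2-null, 16.05, 17.3 and 15.7 in Epha2-indel722, 14.9, 15.4 and 16.3 in Epha2-Q722 and 15.7, 17.1 and 14.99 in wild type lenses. Its Epha2-null libraries were above all others, and it rose in Epha2-null (log2 fold change 0.30 ± 0.08 (SE), adjusted p = 0.016). Tmod2 missed the threshold without Epha2-null replicate 1 and wild type replicates 1 and 3, each left out alone (adjusted p = 0.058 to 0.12). Tmod3, the widely expressed tropomodulin, was near the table's minimum in all genotypes, at 3.37 ± 0.465, 2.86 ± 0.419, 3.42 ± 0.328 and 2.899 ± 0.422 normalized CPM (SD, n = 3) in Epha2-null, Epha2-indel722, Epha2-Q722 and wild type lenses, and passed in none.

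Tropomyosins are coiled coils that run along the filament and stabilize it, and the 4 genes give many isoforms that counts per gene do not separate. Tpm4 measured 9.59, 9.43 and 10.5 normalized CPM in Epha2-null, 9.82, 10.4 and 9.71 in Epha2-indel722, 13.4, 11.96 and 11.6 in Epha2-Q722 and 12.1, 13.9 and 13.2 in wild type lenses. Epha2-indel722 and Epha2-null libraries lay below all wild type libraries, and Tpm4 fell in both (in Epha2-indel722, log2 fold change -0.39 ± 0.09 (SE), adjusted p = 0.0056; in Epha2-null, log2 fold change -0.41 ± 0.09 (SE), adjusted p = 0.0045). Tpm2 measured 6.13, 5.23 and 4.26 normalized CPM in Epha2-null, 5.66, 7.25 and 6.26 in Epha2-indel722, 8.404, 7.61 and 6.64 in Epha2-Q722 and 7.68, 6.18 and 8.29 in wild type lenses. It fell in Epha2-null (log2 fold change -0.50 ± 0.15 (SE), adjusted p = 0.03), with all 3 libraries below wild type by a narrow margin. Tpm2 missed the threshold without Epha2-null replicates 2 and 3 and wild type replicates 1 and 3, each left out alone (adjusted p = 0.083 to 0.16). Tpm1 measured 17.2, 16.3 and 15.1 normalized CPM in Epha2-null, 14.8, 16.2 and 13.7 in Epha2-indel722, 17.6, 18.6 and 17.2 in Epha2-Q722 and 17.8, 18.2 and 17.2 in wild type lenses. It fell in Epha2-indel722 only at the edge of the threshold (log2 fold change -0.25 ± 0.08 (SE), adjusted p = 0.048). Tpm1 missed the threshold without Epha2-null replicate 2, Epha2-indel722 replicates 1 and 3, Epha2-Q722 replicates 1 and 2 and wild type replicates 1, 2 and 3, each left out alone (adjusted p = 0.05 to 0.18) and under DESeq2 (adjusted p = 0.12). Tpm3, the most abundant of the 4 per length at 7.18 normalized CPM per kb in wild type lenses, had log2 fold changes of 0.04 in Epha2-null, -0.02 in Epha2-indel722 and -0.12 in Epha2-Q722, none of which passed. No tropomyosin passed in Epha2-Q722, and none rose in any genotype.

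Spectrin tetramers of alpha and beta chains form the membrane network, and ankyrins couple it to membrane proteins. Ank3, encoding ankyrin-G (chr10:69398773-70027438), was the only member to pass in all 3 genotypes, and not in 1 direction. Ank3 measured 66.5, 76.7 and 66.3 normalized CPM in Epha2-null, 124, 139 and 103 in Epha2-indel722, 149.8, 154 and 169 in Epha2-Q722 and 101, 102 and 98.97 in wild type lenses. Every Epha2-Q722 and Epha2-indel722 library was above, and every Epha2-null library below, all 3 wild type libraries. Ank3 rose in Epha2-Q722 (log2 fold change 0.65 ± 0.09 (SE), adjusted p = 7.3e-05) and fell in Epha2-null (log2 fold change -0.52 ± 0.09 (SE), adjusted p = 0.00051). It rose less in Epha2-indel722 (log2 fold change 0.28 ± 0.09 (SE), adjusted p = 0.04). That call was unstable, and Ank3 missed the threshold without Epha2-indel722 replicates 1 and 2, Epha2-Q722 replicates 1 and 2 and wild type replicates 1, 2 and 3, each left out alone (adjusted p = 0.051 to 0.22), over genes with a mean of at least 10 CPM (adjusted p = 0.054) and with the length trend removed (adjusted p = 0.28). Sptbn1, the beta-II spectrin, measured 692, 811 and 910.01 normalized CPM in Epha2-null, 1171, 1197 and 1138 in Epha2-indel722, 968, 824 and 1212 in Epha2-Q722 and 856, 886 and 812 in wild type lenses. It rose in Epha2-indel722 (log2 fold change 0.46 ± 0.13 (SE), adjusted p = 0.036), where its 3 libraries were close together and above wild type. Sptbn1 missed the threshold without Epha2-indel722 replicates 1, 2 and 3, Epha2-Q722 replicate 1 and wild type replicates 1, 2 and 3, each left out alone (adjusted p = 0.053 to 0.12). Sptan1, the alpha-II spectrin that pairs with it, measured 1188, 1410.00 and 1814 normalized CPM in Epha2-null, 1444, 1384 and 1255 in Epha2-indel722, 1169.5, 1013 and 1309.6 in Epha2-Q722 and 1127, 1184 and 1088 in wild type lenses. Its log2 fold changes of 0.38 in Epha2-null, 0.26 in Epha2-indel722 and 0.04 in Epha2-Q722 did not pass (adjusted p = 0.13, 0.28 and 0.93). Ank2, encoding ankyrin-B, was below wild type in every mutant library except Epha2-null replicate 3 (472, 522 and 609 normalized CPM in Epha2-null, 541, 530.5 and 416 in Epha2-indel722, 475, 433 and 480.1 in Epha2-Q722 and 628, 603 and 550.1 in wild type lenses), and its log2 fold changes of -0.15 in Epha2-null, -0.26 in Epha2-indel722 and -0.36 in Epha2-Q722 missed the threshold (adjusted p = 0.41, 0.13 and 0.059).

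**Figure D3:**
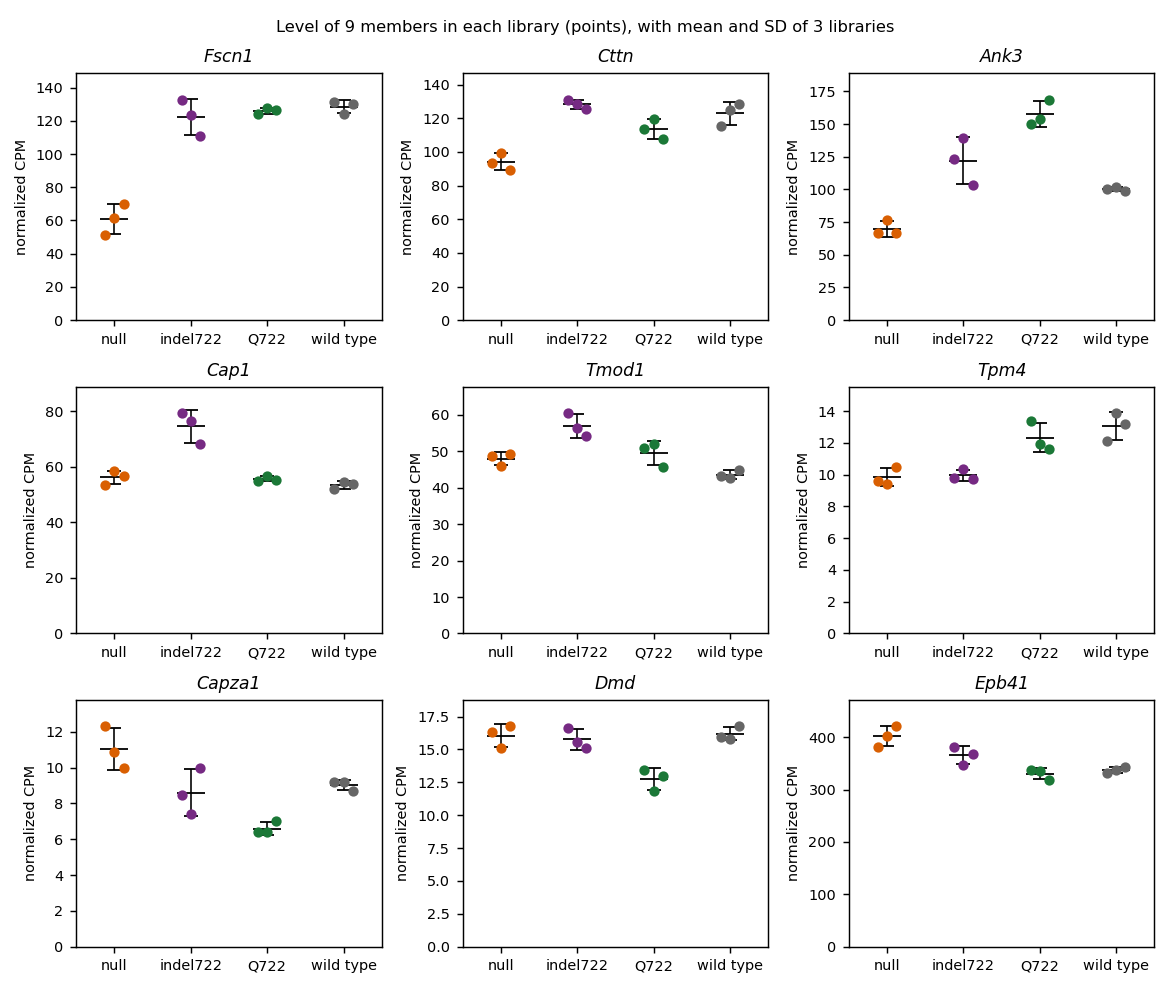
Normalized CPM (linear axes from 0) of 9 members in each library of Epha2-null, Epha2-indel722, Epha2-Q722 and wild type lenses, with the mean and SD of 3 libraries. Fscn1 and Cttn are lowest in Epha2-null, Cap1 and Tmod1 highest in Epha2-indel722, and Ank3 lies above wild type in Epha2-Q722 and below it in Epha2-null.

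The widest spreads between replicates were those of Sptan1 in Epha2-null and Sptbn1 in Epha2-Q722, with coefficients of variation of 21.6% and 19.6%, and single libraries also deviated by gene length. Over the 634 genes with more than 12000 exonic bases, the median log2 deviation from the other libraries of the genotype was 0.10 in Epha2-Q722 replicate 3, -0.11 in Epha2-Q722 replicate 2, 0.10 in Epha2-null replicate 3, -0.08 in Epha2-null replicate 1, 0.08 in wild type replicate 2 and -0.11 in wild type replicate 3. Genotypes differed by length as well. Against wild type, the median log2 fold change of these 634 genes was 0.08 in Epha2-null, 0.02 in Epha2-indel722 and 0.06 in Epha2-Q722. For the 9 members of that length it was -0.01, 0.11 and 0.04 in the same order. Among wild type libraries, Sptan1 and Sptbn1 varied by 4.28% and 4.37%, and both were highest in replicate 2 and lowest in replicate 3. Sptan1 had its highest value of all libraries in Epha2-null replicate 3 and its lowest in Epha2-Q722 replicate 2. With each library's length trend removed, a setting chosen after seeing the data, 58 of the 63 calls among the 6 comparisons passed and 12 were added. RNA integrity per library was not analysed here, and the part of length in these members was not tested beyond that.

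**Figure D4:**
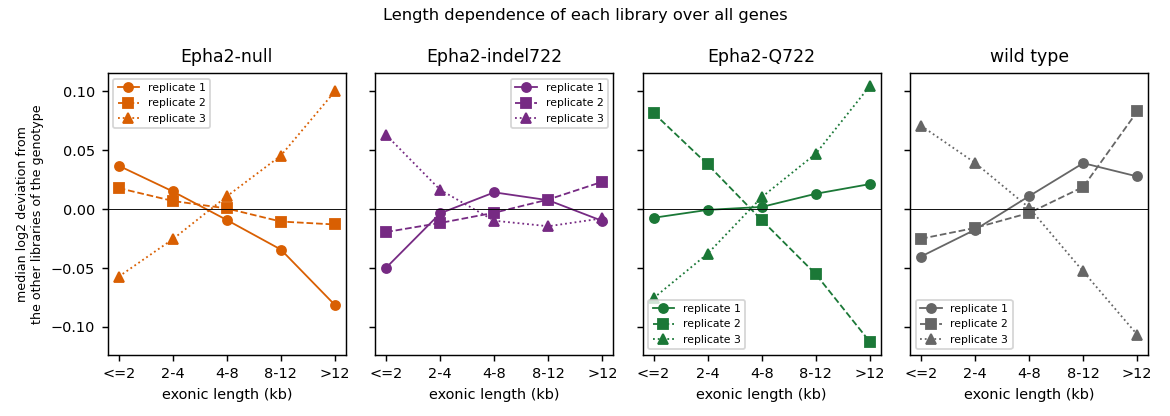
Median log2 deviation of each library from the other libraries of its genotype, over all genes in 5 bins of exonic length in kb, for Epha2-null, Epha2-indel722, Epha2-Q722 and wild type. Above 12 kb the libraries range from -0.11 to 0.10, and Epha2-indel722 libraries stay within -0.01 to 0.02.

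Protein 4.1 binds spectrin and actin together at the network's nodes. Epb41, the founding member of the family, measured 382, 403 and 421 normalized CPM in Epha2-null, 381, 347 and 368 in Epha2-indel722, 338, 335 and 319 in Epha2-Q722 and 333, 337 and 343 in wild type lenses. All 3 Epha2-null libraries were above every Epha2-indel722, Epha2-Q722 and wild type library, and Epb41 rose in Epha2-null (log2 fold change 0.25 ± 0.06 (SE), adjusted p = 0.0049). With the length trend removed its log2 fold change was 0.18 (adjusted p = 0.066). Epb41l3 measured 112, 114 and 114 normalized CPM in Epha2-null, 111, 117 and 105 in Epha2-indel722, 91.3, 100.3 and 102 in Epha2-Q722 and 96.5, 95.98 and 103 in wild type lenses. It rose in Epha2-null by a similar margin (log2 fold change 0.20 ± 0.06 (SE), adjusted p = 0.031). Epb41l3 missed the threshold without Epha2-null replicates 1, 2 and 3 and wild type replicates 1, 2 and 3, each left out alone (adjusted p = 0.052 to 0.15), under DESeq2 (adjusted p = 0.051), under edgeR's exact test on 2 genotypes (adjusted p = 0.074) and with the length trend removed (adjusted p = 0.1). Epb41l1 measured 118, 126 and 125 normalized CPM in Epha2-null, 119, 117 and 113 in Epha2-indel722, 95.6, 105 and 102 in Epha2-Q722 and 114, 127 and 120.03 in wild type lenses. It fell in Epha2-Q722 (log2 fold change -0.25 ± 0.06 (SE), adjusted p = 0.0093), whose 3 libraries were below all 9 others. Epb41l1 missed the threshold without Epha2-Q722 replicate 1 and wild type replicate 2, each left out alone (adjusted p = 0.05 to 0.065). Epb41l2 passed in none, with log2 fold changes of -0.12 in Epha2-null, -0.11 in Epha2-indel722 and -0.01 in Epha2-Q722.

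Adducins cap the fast-growing filament end and recruit spectrin to it. Add1 and Add3 passed in none of the comparisons with wild type, with log2 fold changes between -0.10 and 0.13. ERM proteins link filaments directly to the membrane, and ezrin was the most abundant of them per length in all genotypes. Ezr measured 285, 304 and 300.2 normalized CPM in Epha2-null, 299, 295 and 268 in Epha2-indel722, 274, 267 and 250.3 in Epha2-Q722 and 296, 324 and 307 in wild type lenses. All 3 Epha2-Q722 libraries were below wild type, and Ezr fell in Epha2-Q722 (log2 fold change -0.23 ± 0.06 (SE), adjusted p = 0.023). Ezr missed the threshold without Epha2-Q722 replicates 2 and 3 and wild type replicates 2 and 3, each left out alone (adjusted p = 0.054 to 0.094) and under edgeR's exact test on 2 genotypes (adjusted p = 0.057). Msn, moesin, had log2 fold changes of 0.23 in Epha2-null, 0.12 in Epha2-indel722 and -0.09 in Epha2-Q722 and Rdx, radixin, of -0.02 in Epha2-null, -0.04 in Epha2-indel722 and -0.01 in Epha2-Q722, and neither passed.

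Cortactin binds the Arp2/3 complex, steadies branched actin and is a substrate of Src family kinases. Cttn (chr7:144435733-144471009) measured 93.7, 99.5 and 89.3 normalized CPM in Epha2-null, 131, 128 and 126 in Epha2-indel722, 114, 119 and 108 in Epha2-Q722 and 115, 125 and 129 in wild type lenses. Every Epha2-null library was below all 9 others, and Cttn fell in Epha2-null (log2 fold change -0.39 ± 0.06 (SE), adjusted p = 0.00012), a call that no single library decided. In Epha2-Q722 and Epha2-indel722 its log2 fold changes of -0.11 and 0.06 did not pass. Among the kinases, Yes1 measured 10.2, 7.25 and 8.81 normalized CPM in Epha2-null, 8.07, 7.25 and 7.52 in Epha2-indel722, 9.89, 8.51 and 10.8 in Epha2-Q722 and 9.86, 9.95 and 9.596 in wild type lenses. It fell in Epha2-indel722 at the edge of the threshold (log2 fold change -0.36 ± 0.12 (SE), adjusted p = 0.049). Yes1 missed the threshold without Epha2-indel722 replicates 1, 2 and 3, Epha2-Q722 replicate 1 and wild type replicates 1, 2 and 3, each left out alone (adjusted p = 0.054 to 0.16) and under DESeq2 (adjusted p = 0.091). Src had 10.8 ± 0.592, 10.4 ± 1.03, 11.05 ± 0.773 and 11.2 ± 0.689 normalized CPM (SD, n = 3) in Epha2-null, Epha2-indel722, Epha2-Q722 and wild type lenses, and Fyn had 9.399 ± 1.33, 9.26 ± 0.601, 8.498 ± 0.250 and 9.62 ± 0.07796. Neither Src nor Fyn passed in any of the 6 comparisons, and their phosphorylation is not measured by RNA.

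Fascin, encoded by Fscn1 (chr5:142960343-142973185), packs filaments into tight parallel bundles. Fscn1 measured 51.4, 61.7 and 69.7 normalized CPM in Epha2-null, 133, 123 and 111 in Epha2-indel722, 124, 128 and 126 in Epha2-Q722 and 131, 124 and 130.03 in wild type lenses. The highest Epha2-null library stood well below the lowest of the 9 others. Fscn1 fell in Epha2-null (log2 fold change -1.08 ± 0.09 (SE), adjusted p = 5.4e-08) and was close to wild type in Epha2-Q722 (-0.03) and Epha2-indel722 (-0.07). Across the alternatives, its log2 fold change in Epha2-null stayed between -1.18 and -0.81. Flna, filamin A, which cross-links filaments into networks, measured 67.6, 67.9 and 78.5 normalized CPM in Epha2-null, 73.3, 76.1 and 73.5 in Epha2-indel722, 71.5, 63.4 and 73.6 in Epha2-Q722 and 58.6, 68.03 and 59.2 in wild type lenses. Its log2 fold changes of 0.20 in Epha2-null and 0.16 in Epha2-Q722 did not pass (adjusted p = 0.084 and 0.23). Flna rose in Epha2-indel722 (log2 fold change 0.26 ± 0.07 (SE), adjusted p = 0.019). Flna missed the threshold without Epha2-indel722 replicate 2 and wild type replicates 1 and 3, each left out alone (adjusted p = 0.083 to 0.12). Actn4, an alpha-actinin, measured 71.5, 73.98 and 75.6 normalized CPM in Epha2-null, 90.7, 89.4 and 78.2 in Epha2-indel722, 81.5, 87.7 and 87.9 in Epha2-Q722 and 78.0, 73.8 and 74.8 in wild type lenses. Every Epha2-Q722 library was above wild type, but the log2 fold change of 0.18 there did not pass (adjusted p = 0.09), nor did -0.03 in Epha2-null. Actn4 rose in Epha2-indel722 by little (log2 fold change 0.19 ± 0.06 (SE), adjusted p = 0.049). Actn4 missed the threshold without Epha2-null replicates 1 and 2, Epha2-indel722 replicates 1 and 2, Epha2-Q722 replicates 1 and 2 and wild type replicates 1, 2 and 3, each left out alone (adjusted p = 0.051 to 0.21), under DESeq2 (adjusted p = 0.085), under edgeR's exact test on 2 genotypes (adjusted p = 0.063), over genes with a mean of at least 10 CPM (adjusted p = 0.064) and with the replicate number as a block (adjusted p = 0.067). Actn1 and the non-muscle myosin heavy chains Myh9 and Myh10 passed in none, with log2 fold changes of -0.05 to 0.23.

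Cyclase-associated proteins work with cofilin to recycle actin monomers. Cap1 (chr4:122859047-122886056) measured 53.6, 58.4 and 56.7 normalized CPM in Epha2-null, 79.4, 76.4 and 68.1 in Epha2-indel722, 55.1, 56.8 and 55.3 in Epha2-Q722 and 51.9, 54.4 and 54.0 in wild type lenses. All 3 Epha2-indel722 libraries were above all 9 others, and Cap1 rose in Epha2-indel722 (log2 fold change 0.48 ± 0.06 (SE), adjusted p = 1e-05). Its exons overlap those of Ppt1, a lysosomal thioesterase gene on the opposite strand, and the strand setting of the counting is not given in the sources used here. Ppt1 rose in Epha2-indel722 as well (38.2 against 28.7 normalized CPM in wild type, log2 fold change 0.42, adjusted p = 0.00066). How reads in the shared part of the exons were assigned is not known, and its effect on either gene was not tested. Cap2, the relative of Cap1, had log2 fold changes of 0.12 in Epha2-null, 0.10 in Epha2-indel722 and 0.03 in Epha2-Q722, none of which passed. Cfl2, a cofilin, measured 29.5, 28.9 and 27.8 normalized CPM in Epha2-null, 22.4, 24.01 and 26.5 in Epha2-indel722, 26.96, 27.6 and 30.3 in Epha2-Q722 and 30.7, 28.1 and 31.5 in wild type lenses. It fell in Epha2-indel722 (log2 fold change -0.31 ± 0.08 (SE), adjusted p = 0.0076). Cfl2 missed the threshold without Epha2-indel722 replicate 1 (adjusted p = 0.063). Cfl1, the more abundant cofilin, and the profilins Pfn1 and Pfn2, which deliver monomers to growing ends, passed in none against wild type, with log2 fold changes of -0.09 to 0.17.

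Capping protein is a dimer of an alpha and a beta subunit that blocks the fast-growing end. Capza1 measured 12.3, 10.9 and 9.96 normalized CPM in Epha2-null, 8.45, 7.395 and 9.99 in Epha2-indel722, 6.40, 6.41 and 6.99 in Epha2-Q722 and 9.19, 9.18 and 8.69 in wild type lenses. Epha2-Q722 libraries were below all 9 others, and Capza1 fell in Epha2-Q722 (log2 fold change -0.45 ± 0.12 (SE), adjusted p = 0.025). Capza1 missed the threshold without Epha2-Q722 replicates 1 and 2 and wild type replicates 1, 2 and 3, each left out alone (adjusted p = 0.055 to 0.087). In Epha2-null its difference lay on the other side but did not pass (0.29, adjusted p = 0.099). Capza2, the more abundant alpha subunit, measured 39.7, 40.2 and 39.3 normalized CPM in Epha2-null, 41.9, 45.2 and 44.7 in Epha2-indel722, 39.5, 41.7 and 45.1 in Epha2-Q722 and 39.1, 34.8 and 39.1 in wild type lenses. Every mutant library was above all wild type libraries, but log2 fold changes of 0.08 in Epha2-null and 0.16 in Epha2-Q722 did not pass (adjusted p = 0.53 and 0.18). Capza2 rose in Epha2-indel722 (log2 fold change 0.22 ± 0.07 (SE), adjusted p = 0.028). Capza2 missed the threshold without Epha2-indel722 replicates 2 and 3 and wild type replicates 1 and 2, each left out alone (adjusted p = 0.054 to 0.2) and under DESeq2 (adjusted p = 0.063). Capzb, the beta subunit, had log2 fold changes of -0.01 in Epha2-null, -0.12 in Epha2-indel722 and 0.03 in Epha2-Q722, none of which passed.

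The Arp2/3 complex starts new filaments as branches on old ones. Actr3 measured 55.8, 57.97 and 55.1 normalized CPM in Epha2-null, 52.5, 52.4 and 56.1 in Epha2-indel722, 50.8, 52.7 and 55.8 in Epha2-Q722 and 59.9, 62.2 and 61.5 in wild type lenses. Every mutant library was below every wild type library, and Actr3 fell in Epha2-Q722 (log2 fold change -0.21 ± 0.06 (SE), adjusted p = 0.038) and Epha2-indel722 (log2 fold change -0.19 ± 0.06 (SE), adjusted p = 0.035). In Epha2-Q722, Actr3 missed the threshold without Epha2-null replicate 2, Epha2-indel722 replicate 2, Epha2-Q722 replicates 1 and 2 and wild type replicates 1, 2 and 3, each left out alone (adjusted p = 0.052 to 0.16), under DESeq2 (adjusted p = 0.065), under edgeR's exact test on 2 genotypes (adjusted p = 0.079) and with 2 genotypes in the fit (adjusted p = 0.07). In Epha2-indel722, Actr3 missed the threshold without Epha2-indel722 replicates 1 and 2 and wild type replicates 1, 2 and 3, each left out alone (adjusted p = 0.051 to 0.13) and under DESeq2 (adjusted p = 0.059). Arpc2, Arpc3 and Actr2, which encode other subunits, had log2 fold changes of -0.05 to 0.08 and passed in none.

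Vinculin and talin couple actin to cell contacts, and Vcl and Tln1 passed in none, with log2 fold changes of -0.06 to 0.24. Dystrophin and utrophin join actin to the dystroglycan complex, and plectin joins it to intermediate filaments. Dmd measured 16.3, 15.1 and 16.8 normalized CPM in Epha2-null, 16.7, 15.5 and 15.1 in Epha2-indel722, 13.4, 11.9 and 12.97 in Epha2-Q722 and 15.96, 15.8 and 16.8 in wild type lenses. All 3 Epha2-Q722 libraries were below the 9 others, and Dmd fell in Epha2-Q722 (log2 fold change -0.35 ± 0.09 (SE), adjusted p = 0.012). Dmd missed the threshold without Epha2-Q722 replicate 2 and wild type replicate 3, each left out alone (adjusted p = 0.065 to 0.073). Utrn had log2 fold changes of 0.09 in Epha2-null, 0.04 in Epha2-indel722 and 0.28 in Epha2-Q722 and Plec of 0.21 in Epha2-null, 0.13 in Epha2-indel722 and -0.17 in Epha2-Q722, and neither passed.

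The mutant genotypes were also set against each other. Relative to Epha2-Q722, 7 members rose and 3 fell in Epha2-indel722 (6.57% and 5.88% of all genes), while in Epha2-null 10 rose and 6 fell (7.95% and 9.02% of all genes). In Epha2-indel722 relative to Epha2-null, 7 members rose and 3 fell (5.51% and 4.35% of all genes). Changes of at least 2-fold were 0 for Epha2-indel722 over Epha2-Q722, Ank3 and Fscn1 for Epha2-null over Epha2-Q722, and Fscn1 for Epha2-indel722 over Epha2-null, against 0.922%, 1.21% and 0.98% of all genes. Ank3 passed in all 3 comparisons of mutant genotypes: it was lower in Epha2-null than in Epha2-Q722 (log2 fold change -1.17 ± 0.09 (SE), adjusted p = 2.6e-08), higher in Epha2-indel722 than in Epha2-null (log2 fold change 0.80 ± 0.09 (SE), adjusted p = 4.5e-06) and lower in Epha2-indel722 than in Epha2-Q722 (log2 fold change -0.37 ± 0.09 (SE), adjusted p = 0.0077). The last of these missed the threshold with library totals (adjusted p = 0.068) and with the length trend removed (adjusted p = 0.096). Capza1 was higher in Epha2-null than in Epha2-Q722 (log2 fold change 0.74 ± 0.12 (SE), adjusted p = 6.5e-05), as were Epb41 (0.28), Epb41l1 (0.28), Tmod2 (0.34) and Dmd (0.33). Cttn was higher in Epha2-indel722 than in Epha2-null (log2 fold change 0.45 ± 0.06 (SE), adjusted p = 1.9e-05). Add1, Msn, Pfn1 and Plec passed in comparisons of mutant genotypes alone, and 23 members passed in none of the 6 comparisons.

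Epha2 lies on chromosome 4, and DNA near it was inherited with each allele. Of the 6 members on chromosome 4, 3 lie within 20 Mb of Epha2: Capzb at 2.01 Mb, Epb41 at 9.23 Mb and Cap1 at 18.42 Mb. Epb41 rose in Epha2-null and Cap1 in Epha2-indel722, whereas Capzb passed in none. An effect of the allele and one of linked DNA cannot be told apart for Epb41 and Cap1. Distances from Epha2 were taken for members only, so linkage of the other genes named below, such as Wasf2, was not examined.

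Other genes of the same machinery were counted from 12 lists of 205 genes, of which 146 were measured and are not members. In Epha2-null 8 of these rose and 11 fell, in Epha2-indel722 11 rose and 13 fell, and in Epha2-Q722 5 rose and 6 fell, with medians of -0.01 in each. Thus 13.01% of them passed in Epha2-null, 16.4% in Epha2-indel722 and 7.53% in Epha2-Q722, near the shares of all genes (4.98% rose and 6.22% fell in Epha2-null, 6.73% rose and 6.37% fell in Epha2-indel722, and 2.75% rose and 3.62% fell in Epha2-Q722). Myl9, a regulatory light chain of non-muscle myosin, fell in Epha2-indel722 (-0.61, adjusted p = 0.00064) and Epha2-null (-0.54, adjusted p = 0.0026). Ppp1cb, a catalytic subunit of myosin phosphatase, fell in Epha2-null (-0.60, adjusted p = 0.00016) and Epha2-indel722 (-0.37, adjusted p = 0.0086). Myo10, a filopodial motor, more than doubled in Epha2-null (8.47 against 3.99 normalized CPM in wild type, log2 fold change 1.09, adjusted p = 1.2e-05). Among cross-linkers, the alpha-actinin gene Actn2 fell in Epha2-null (24.04 against 58.4 normalized CPM in wild type, log2 fold change -1.28, adjusted p = 0.0028), and Tagln2 rose in Epha2-Q722 (6.86 against 3.26 normalized CPM in wild type, log2 fold change 1.06, adjusted p = 0.0033).

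Further from the core, Coro1c, a coronin, fell in Epha2-Q722 (-0.52, adjusted p = 8.8e-05), and Wasf2, an activator of the Arp2/3 complex, rose in Epha2-indel722 (0.52, adjusted p = 6.1e-06). Nckap1, a partner of the Wasf proteins, rose in Epha2-null (0.33, adjusted p = 0.00047). Epb41l4a fell in Epha2-indel722 (137 against 219 normalized CPM in wild type, log2 fold change -0.68, adjusted p = 3.5e-06). Clic5, whose protein binds ERM proteins, averaged 0.0739 normalized CPM in Epha2-indel722, below the 3-count limit, and 46.8 in Epha2-null, against 133 in wild type lenses, and fell in both (adjusted p = 4.4e-05 and 0.028). Prx, periaxin, rose in Epha2-Q722 (0.29) and fell in Epha2-indel722 (-0.37) and Epha2-null (-0.29). Csk, the kinase that inhibits Src family kinases, fell in Epha2-Q722 (-0.25, adjusted p = 0.049) and Epha2-indel722 (-0.27, adjusted p = 0.019), and Shc1, an adaptor, rose in Epha2-indel722 (0.40, adjusted p = 0.0015).

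Markers of lens compartments moved with genotype beside these genes. Of 14 fiber markers, 6 fell in Epha2-null, 4 fell and 1 rose in Epha2-indel722 and 2 fell in Epha2-Q722. Among the fiber markers that passed, Crybb2 in Epha2-Q722 (-1.13) and Lgsn in Epha2-indel722 (-7.34) changed by more than 2-fold. By its own edgeR test, the paper reports lower Lgsn in Epha2-Q722 and Epha2-null as well. In the test used here, Lgsn did not pass with a change of at least 2-fold in either of those genotypes. The summed level of the 14 fiber markers was 103370 to 107290 normalized CPM in Epha2-null, 110530 to 121100 in Epha2-indel722, 109620 to 115770 in Epha2-Q722 and 121590 to 133800 in wild type lenses. The list includes the crystallins Cryba1 and Crybb2, and such a sum follows its most abundant genes rather than each marker. Of 12 epithelial markers, 2 rose and 4 fell in Epha2-null, 1 rose and 3 fell in Epha2-indel722 and 1 rose in Epha2-Q722. The 4 measured of 13 pericyte and smooth muscle markers (Acta2, Pdgfrb, Rgs5 and Notch3) summed to 121, 132 and 213 in Epha2-null, 89.3 to 114 in Epha2-indel722, 82.2 to 94.6 in Epha2-Q722 and 81.9 to 107 in wild type lenses. None of the 4 passed here, whereas the paper, by its own edgeR test, reports Acta2 as moderately raised in Epha2-null. The 3 measured of 10 fibroblast markers (Col1a2, Pdgfra and Fbln1) summed to 65.8 to 67.7 in Epha2-null, 62.1 to 68.2 in Epha2-indel722, 81.9 to 94.0 in Epha2-Q722 and 61.1 to 68.7 in wild type lenses, and Pdgfra alone of these passed, in Epha2-Q722, at a log2 fold change of 0.50 (adjusted p = 3.2e-05). Also measured were 2 of 13 endothelial genes (Tek and Egfl7) and 1 of 9 pigmented epithelium genes (Mitf, which fell in Epha2-null by 0.46 on the log2 scale). Their part in the changes of the cytoskeleton genes was not tested.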

How the data were processed

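Reads had been aligned to mm10 (STAR 2.5.3a), filtered (SAMtools 1.4.1) and counted by the authors per gene (HTSeq 0.11.0); annotation release and strand setting are not given in the sources used here. The deposited table holds whole read counts and, beside them, CPM on full library totals, log2 fold changes and average log2 CPM, and p-values with adjusted values from the authors' edgeR comparisons, which were not used. Full totals were recovered from deposited counts and CPM (listed genes held 99.3% to 99.5%). All 12 libraries were used and 0 sample columns left out. Symbols turned into dates were restored for 14 genes.

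Counts were tested with edgeR 4.0.16 (TMM, glmQLFit with robust estimation, glmQLFTest) in R 4.3.3, with genotype as the only factor, 8 residual degrees of freedom and 6 comparisons; filterByExpr removed 0 genes. TMM factors were 0.886 to 0.913 in wild type and 0.945 to 1.12 in mutant libraries. Replicates of a genotype differed beyond counting noise. Positions and exonic lengths are from GENCODE vM21 (GRCm38). On simulated counts, the test found 50, 48 and 48 of 50 genes changed 2-fold in Epha2-null, Epha2-indel722 and Epha2-Q722, 46, 37 and 46 of 50 changed 1.5-fold, and 22, 19 and 16 of 50 changed 1.25-fold. Alternatives were library totals, DESeq2 1.42.0, edgeR's exact and quasi-likelihood tests on 2 genotypes, no filter, a mean of at least 10 CPM, a replicate block, each library left out and, added after seeing the data, a length correction. Members that passed against wild type in any genotype are given in full, others by range or family; of 12 pathway lists, genes changed at least 2-fold and otherwise at most 2 per list and comparison of smallest p are named, and a few of these are not reported here. Members and lists were chosen with earlier results of these data known. Limits from counts of 0 cover counting error only.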

Additional observations from a re-analysis of the deposited data

Results flagged for a closer look

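Between mutant genotypes, 36 differences of cytoskeleton genes passed edgeR's quasi-likelihood test of the difference itself (adjusted p of at most 0.05), and each is given as a log2 difference with no explanation. Of these, 12 held under all alternatives run.

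For Epha2-indel722 over Epha2-Q722, the values were 0.20 for Tmod1, -0.26 for Tpm1, -0.30 for Tpm4, -0.37 for Ank3, 0.20 for Epb41l1, 0.18 for Epb41l3, 0.20 for Add1, 0.42 for Cap1, 0.37 for Capza1 and 0.31 for Dmd. Cap1 alone held under all alternatives run.

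For Epha2-null over Epha2-Q722, the values were 0.18 for Actg1, 0.34 for Tmod2, -0.53 for Tpm2, -0.32 for Tpm4, -1.17 for Ank3, 0.28 for Epb41, 0.28 for Epb41l1, 0.21 for Epb41l3, 0.33 for Msn, -0.27 for Cttn, -1.05 for Fscn1, -0.22 for Actn4, 0.21 for Pfn1, 0.74 for Capza1, 0.38 for Plec and 0.33 for Dmd. Tmod2, Ank3, Epb41, Epb41l1, Fscn1, Capza1 and Dmd held under all alternatives run.

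For Epha2-indel722 over Epha2-null, the values were 0.25 for Tmod1, -0.26 for Tmod2, 0.54 for Sptbn1, 0.80 for Ank3, 0.45 for Cttn, 1.01 for Fscn1, 0.22 for Actn4, 0.41 for Cap1, -0.24 for Cfl2 and -0.37 for Capza1. Ank3, Cttn, Fscn1 and Cap1 held under all alternatives run.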

How the results depend on the processing

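No call among the 63 of the 6 comparisons changed direction under any alternative run, and 16 held under all of them. DESeq2 lost 17 calls and added 5, edgeR's exact test on 2 genotypes lost 14 and added 6, its quasi-likelihood test on 2 genotypes lost 7 and added 6, and omitting the filter changed 0. A mean of at least 10 CPM left 43 members to test. Same-numbered libraries showed no clear shared deviation (r of -0.158 to 0.229 over 18 pairs, and 4 of 12 libraries nearest to their own number). For pairs of unlike number, r was -0.153 to 0.188. Sample titles do not state what the replicate numbers stand for, and these values cannot show whether same-numbered pools were prepared together. With the replicate block, 60 of 63 calls passed, 3 were lost and 1 was added, and against wild type 4 members rose and 5 fell in Epha2-null, 6 rose and 5 fell in Epha2-indel722 and 1 rose and 5 fell in Epha2-Q722.

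With library totals, members that rose and fell were 33 and 1 in Epha2-null, 17 and 0 in Epha2-indel722, 7 and 0 in Epha2-Q722, 3 and 0 for Epha2-indel722 over Epha2-Q722, 3 fell for Epha2-null over Epha2-Q722, and 4 rose for Epha2-indel722 over Epha2-null. Member medians there were 0.26, 0.19 and 0.14 against wild type in the same genotype order, 0.14 for Epha2-null over Epha2-Q722 and -0.13 for Epha2-indel722 over Epha2-null. In Epha2-null, members not called with TMM passed on the opposite side: Add1 (0.24), Ezr (0.21), Rdx (0.25), Actn4 (0.23), Cfl1 (0.23), Cfl2 (0.20), Capzb (0.26), Arpc2 (0.23), Actr2 (0.25) and Dmd (0.26). This follows from the shift of all genes. Under DESeq2, 2 members fell in Epha2-indel722, 1 fell for Epha2-indel722 over Epha2-Q722 and 0 for Epha2-indel722 over Epha2-null; under the exact test 3 rose for Epha2-indel722 over Epha2-Q722. Over genes with a mean of at least 10 CPM the median was -0.0166 in Epha2-Q722 and 0.0307 for Epha2-null over Epha2-Q722, and with the length trend removed it was -0.013 in Epha2-Q722. The causes of these moves were not tested.

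Leaving out 1 library at a time, members that rose ranged from 1 to 5 in Epha2-null, from 2 to 9 in Epha2-indel722 and from 1 to 2 in Epha2-Q722, and members that fell from 4 to 5, 1 to 5 and 1 to 6 in the same order. Medians ranged from -0.0168 to 0.0228 in Epha2-null, -0.0118 to 0.0493 in Epha2-indel722, -0.0254 to -0.0061 in Epha2-Q722 and 0.0014 to 0.0438 for Epha2-null over Epha2-Q722. For Epha2-indel722 over Epha2-Q722, 1 to 9 rose and 1 to 4 fell; for Epha2-null over Epha2-Q722, 5 to 12 rose; for Epha2-indel722 over Epha2-null, 4 to 8 rose and 0 to 3 fell. Lowest counts in Epha2-Q722 came without wild type replicate 2 or 3 or Epha2-Q722 replicate 2 (1 fell each), and in Epha2-indel722 without wild type replicate 1 or Epha2-indel722 replicate 2 (2 rose each) and without Epha2-indel722 replicate 1 (1 fell). Small changes, as most here are, were found less often than 2-fold changes on simulated counts.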
